A study of Homo sapiens with 9 samples.

Results

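The matrix metalloproteinases and their inhibitors were followed as 10 genes, MMP1, MMP2, MMP3, MMP9, MMP14, MMP15, TIMP1, TIMP2, TIMP3 and ADAMTS1, out of 58884 genes counted. The genes were chosen with earlier results of these data known. They were taken by symbol from the gene count table, without a filter on their values, and all 10 were found. RNA-seq was performed on MDA-MB-231, a human breast cancer cell line of the claudin-low type (the parental line, Par), and on its sub-populations LM2 and BrM2, with 3 replicates of each line and 9 libraries in all. LM2 and BrM2 were selected in vivo for colonization of the lung and of the brain of mice, and each is a single derived line. All 3 lines were grown untreated in monolayer in DMEM with fetal bovine serum and penicillin-streptomycin, and the replicates were harvested at different passages. The comparison of each sub-population with Par, and of BrM2 with LM2, asks how the expression of these proteases differs between lines with different metastatic behavior.

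Matrix metalloproteinases are zinc-dependent enzymes that cut collagens, fibronectin, laminins and other matrix proteins, and most are made as inactive proenzymes that must be cleaved to work. Secreted members diffuse into the matrix, whereas membrane-type members stay at the cell surface, where MMP14 together with TIMP2 activates pro-MMP2. The tissue inhibitors of metalloproteinases (TIMPs) bind the active enzymes, and the balance of both is a classical theme of invasion and metastasis in breast cancer. ADAMTS1 belongs to a related family of secreted proteases that cleave the proteoglycans aggrecan and versican.

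The libraries held between 14371858 and 24511786 counts on genes. The lines were checked against 14 markers of mammary epithelial and claudin-low cells. VIM and CD44 were at 10759 counts or more in every library, the luminal receptor gene PGR reached at most 4 counts and ESR1 at most 16, and the cell adhesion gene CDH1 lay between 3 and 37 counts. The epithelial markers were not all low, since KRT8 and KRT18 were at 6882 counts or more, KRT19 at 760 to 4789, CLDN7 at 156 to 304 and EPCAM at 55 to 202. ERBB2 was at 1420 to 2722 counts, whereas CDH2 was low, at 3 to 14, and CLDN3 had at most 9. CLDN4 was lower than in Par by log2 differences of -4.03 in LM2 (adjusted p = 0.00105, edgeR) and -2.26 in BrM2 (adjusted p = 0.00926, edgeR). The 4 leukocyte markers summed to at most 0.265 CPM in any library, and the 4 endothelial markers to between 6.72 and 13.1 CPM, mostly through PECAM1 (39 to 183 counts) and KDR (69 to 204 counts), while VWF and CDH5 had at most 9 and 4 counts. The 5 fibroblast markers summed to between 28.6 and 32.6 CPM in Par, between 4.45 and 10.5 CPM in LM2 and between 9.58 and 13.9 CPM in BrM2, with DCN at 0 in Par and LM2 and mostly through PDGFRB, and the part of such differences in the results was not tested. The libraries numbered 1 stood apart from those numbered 2 and 3 in every line, with TMM scaling factors of 0.845 to 0.945 against 1.03 to 1.07. For this reason results are also given from a fit with the replicate number as a block, by gene for the 10 genes and as counts with examples for the lists of related genes.

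Among the genes tested, MMP1, MMP2, MMP3, ADAMTS1 and TIMP1 differed between lines, and without the replicate number no other gene did so past the threshold. LM2 and BrM2 had 80.4-fold and 208-fold more MMP1 than Par, MMP2 was high only in the LM2 libraries, ADAMTS1 was high only in the BrM2 libraries, and TIMP1 was 4.20-fold lower in BrM2 than in Par. MMP14 and TIMP3 were abundant in all 3 lines and differed by at most 1.54-fold in any comparison. With the replicate number as a block, MMP14 was lower than Par in both sub-populations past the threshold, and TIMP3 passed it in no comparison. Expression is given as raw counts and as normalized CPM, counts scaled to a common library size with TMM factors, and a gene was called when edgeR's quasi-likelihood test gave it an adjusted p under 0.05. In bulk RNA, fewer cells that express a gene and less RNA per cell cannot be told apart.

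**Figure D1:**
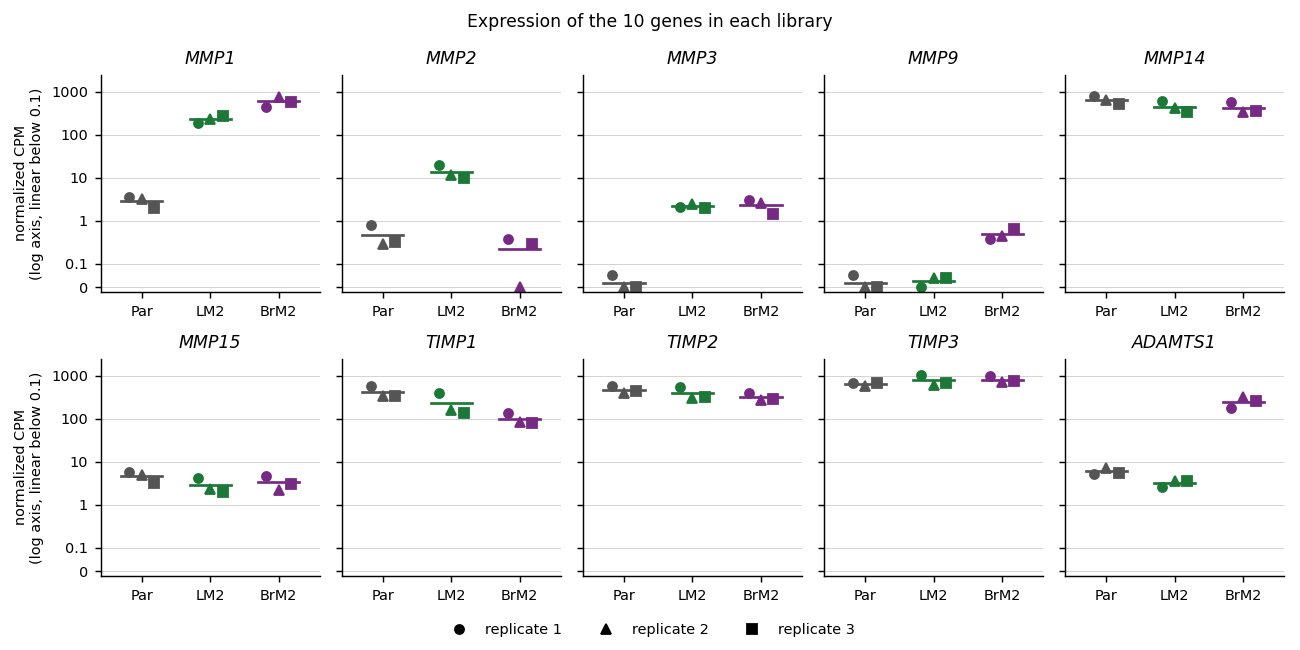
Expression of the 10 genes in each library. The y axis gives CPM scaled by TMM on a log axis that is linear below 0.1, each point is a library (circle, triangle and square for replicates 1, 2 and 3), and horizontal lines are means of 3 libraries. MMP1 rises from a mean of 2.87 CPM in Par to 230 in LM2 and 593 in BrM2, whereas MMP2 stands high in LM2 and ADAMTS1 in BrM2; levels are to be compared within a panel, since CPM do not account for gene length.

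In LM2 against Par, 3 of the 9 genes tested were called, MMP1, MMP2 and MMP3, all higher in LM2, where 8.69% of the 13055 genes tested were called, 4.17% higher and 4.52% lower. With the replicate block 7 genes were called, against 34.5% of all genes (15.5% higher and 19.1% lower), and the added genes MMP14, MMP15, TIMP1 and ADAMTS1 were lower in LM2. In BrM2 against Par, 4 genes were called, MMP1, MMP3 and ADAMTS1 higher and TIMP1 lower, where 13.3% of all genes were called, 6.25% higher and 7.02% lower. The block took this to 6 genes, against 42.7% of all genes (23.2% lower), by adding MMP14 and TIMP2, both lower in BrM2. In BrM2 against LM2, MMP1 and ADAMTS1 were higher and MMP2 was lower, where 8.1% of all genes were called, 4.11% higher and 3.99% lower. The block added TIMP1, lower in BrM2, where it called 37.5% of all genes (19.7% lower). Without the libraries numbered 1, edgeR called 8, 6 and 4 of the 9 genes in these comparisons, where it called 4327, 5274 and 4257 of all genes. All 10 calls made over the 9 libraries, of MMP1, MMP2, MMP3, TIMP1 and ADAMTS1, were made without them too, with an adjusted p of at most 0.000917. Without the libraries numbered 2, where 70, 159 and 53 of all genes were called, MMP2, MMP3 and TIMP1 lost their calls. MMP1 then lost its call in BrM2 against LM2. Without those numbered 3, where 136, 274 and 113 of all genes were called, MMP2 and TIMP1 lost theirs, as did MMP1 in BrM2 against LM2. The calls of ADAMTS1, and of MMP1 against Par, were kept in both. The Par libraries serve in both comparisons with Par, so the values are set side by side and are not independent. MMP9 did not reach the filter on low counts. MMP2 passed it through the LM2 libraries, and MMP3, with at most 59 counts in any library, through the sub-populations. ADAMTS1 reached high counts in BrM2 only. The share of called genes among those tested is therefore a description of these genes and no more.

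**Figure D2:**
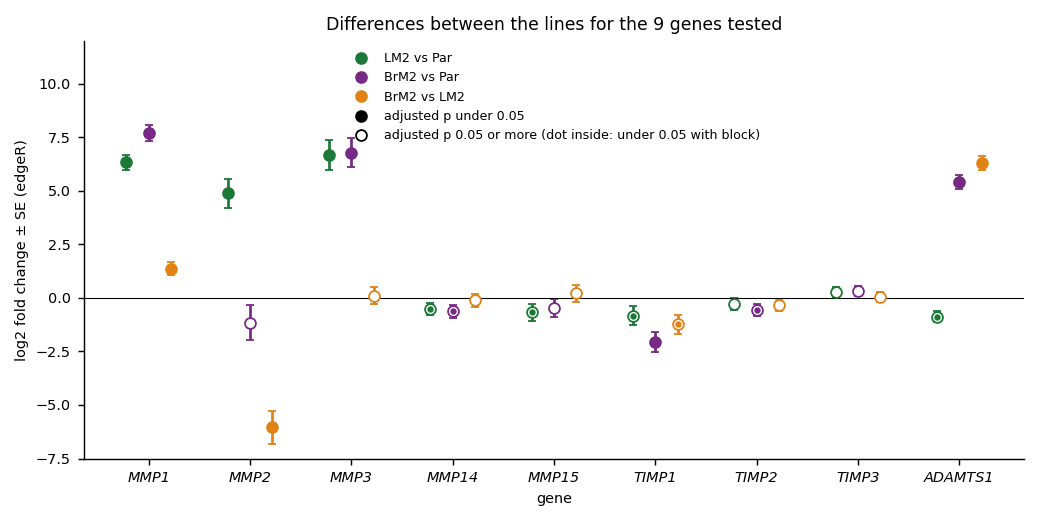
Differences between the lines for the 9 genes tested. The y axis gives the log2 fold change from edgeR with its standard error, filled points have an adjusted p under 0.05 in the fit without the replicate number, and a dot inside an open point marks a difference called with the replicate block. MMP1 (6.33 and 7.70) and MMP3 (6.67 and 6.77) lie high in both comparisons with Par, MMP2 only in LM2 and ADAMTS1 only in BrM2, and the open points with a dot, such as MMP14 in both comparisons with Par, are called with the block only. The fitted values of MMP3 against Par rest on 1 count over the Par libraries and depend on the fit.

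MMP1, the interstitial collagenase that cleaves fibrillar collagens, was counted 68, 64 and 49 times in Par replicates 1 to 3, 3814, 5546 and 7147 times in LM2, and 5942, 17147 and 12180 times in BrM2. No library of one line overlapped with those of another, and BrM2 replicate 1, the library with the fewest counts in total, still lay above every LM2 library in CPM (439 against at most 274). The gene was 6.33 ± 0.36 (log2, SE) higher in LM2 than in Par, with an adjusted p of 6.06e-05 in edgeR's quasi-likelihood test. In BrM2 the difference from Par was 7.70 ± 0.38, with an adjusted p of 2.54e-05 in the same test. Between the sub-populations, BrM2 had 2.58-fold more MMP1 than LM2 (log2 1.37 ± 0.28, adjusted p = 0.0189, edgeR), and the differences by replicate number were 1.21, 1.74 and 1.09. That smaller difference was called in 6 of 9 fits that left out 1 library each, and the adjusted p was 0.0723 without BrM2 replicate 2, 0.068 without BrM2 replicate 3 and 0.083 without LM2 replicate 2. MMP1 lies on chromosome 11 at 102789919 to 102798160 (GRCh38.p14, RefSeq annotation). Opposite-strand exons of WTAPP1 cover 8.14% of its exon bases, and WTAPP1 had at most 7 counts in any library.

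MMP3, stromelysin-1, cleaves proteoglycans, fibronectin and laminin and can activate pro-MMP1. It was counted 1, 0 and 0 times in Par, 42, 59 and 52 times in LM2 and 41, 58 and 30 times in BrM2. Every library of both sub-populations lay above every Par library, and LM2 and BrM2 overlapped. With 1 count over the 3 Par libraries, the ratio of pooled counts was 141 in LM2, with an exact 95% interval of 24.9 to 5601, and 147 in BrM2, with an interval of 26.0 to 5861, where the intervals cover counting error only. The adjusted p of edgeR's quasi-likelihood test was 0.000549 in LM2 and 0.000334 in BrM2, both against Par. Between BrM2 and LM2 the ratio was 1.04, with an exact interval of 0.820 to 1.33. The gene lies in the same cluster as MMP1, at 102835801 to 102843609 of chromosome 11. Of the 31-base stretches of its exons, 6.91% also occur in other genes, of which MMP10 shares the most. The other genes of that cluster that were counted, MMP7, MMP8, MMP10, MMP12, MMP13, MMP20 and MMP27, had at most 8 counts in any library.

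MMP2, gelatinase A, cleaves denatured collagen and the type IV collagen of basement membranes. Par had 15, 6 and 8 counts, LM2 had 390, 282 and 262, and BrM2 had 5, 0 and 6. The LM2 libraries, at 10.0 to 19.4 CPM, stood above all others, and the Par and BrM2 libraries overlapped. MMP2 was 29.5-fold higher in LM2 than in Par (log2 4.89 ± 0.68, adjusted p = 0.00255, edgeR) and 66.1-fold lower in BrM2 than in LM2 (log2 -6.05 ± 0.76, adjusted p = 0.00156, edgeR). The ratio of pooled counts of LM2 to BrM2 was 68.5, with an exact interval of 38.1 to 138. BrM2 and Par differed by -1.16 ± 0.83 (log2), with an adjusted p of 0.467 in edgeR's test. Both calls were made in 9 of 9 fits without 1 library. The gene spans 55478830 to 55506691 of chromosome 16.

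MMP9, gelatinase B, was counted 1, 0 and 0 times in Par, 0, 1 and 1 times in LM2, and 5, 10 and 13 times in BrM2. The BrM2 libraries lay above all others, at 0.369 to 0.623 CPM. The pooled ratio was 32.0 for BrM2 against Par, with an exact interval of 5.29 to 1307, and 17.4 against LM2, with an interval of 4.38 to 150. LM2 against Par gave 1.84, with an interval of 0.0959 to 109, so that no difference was detectable at this depth. When all genes with at least 1 count were tested, edgeR gave MMP9 an adjusted p of 0.00343 for BrM2 against Par, 0.00891 for BrM2 against LM2 and 0.924 for LM2 against Par. Of the 31-base stretches of MMP9 exons, 13.8% also occur in other genes. The gene that shares the most is the antisense gene SLC12A5-AS1, which had at most 3 counts. MMP9 lies at 46008908 to 46016561 of chromosome 20.

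MMP14 (MT1-MMP), the membrane-anchored collagenase and activator of pro-MMP2, was the most abundant of the 6 metalloproteinases in Par and lies at 22836585 to 22847758 of chromosome 14. Its counts were 14786, 13196 and 13241 in Par, 12201, 10159 and 8599 in LM2, and 7727, 7563 and 7294 in BrM2. In CPM the libraries of the 3 lines overlapped, between 329 and 777, and within each line replicate 1 was the highest. Each same-numbered pair was lower in LM2 than in Par, by -0.36, -0.62 and -0.66 (log2), and lower in BrM2 than in Par, by -0.45, -0.94 and -0.57. Without the replicate number the difference was -0.52 ± 0.30 in LM2, with an adjusted p of 0.405 in edgeR's test. With the block it was -0.55 ± 0.12, with an adjusted p of 0.00612. BrM2 moved likewise, from -0.63 ± 0.30 (adjusted p = 0.241, edgeR) to -0.65 ± 0.12 (adjusted p = 0.00173, edgeR with replicate block). BrM2 and LM2 differed by -0.11 ± 0.30, with an adjusted p of 0.898 in edgeR.

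MMP15 (MT2-MMP), another membrane-type protease (58025754 to 58046901 of chromosome 16), was low, with 107, 99 and 82 counts in Par, 86, 56 and 52 in LM2, and 64, 50 and 62 in BrM2. The lines overlapped in CPM. Its difference from Par was -0.68 ± 0.40 in LM2 (adjusted p = 0.421, edgeR), which was called with the block (-0.72 ± 0.23, adjusted p = 0.0331, edgeR). In BrM2 it was -0.47 ± 0.40, with an adjusted p of 0.558 in edgeR and 0.112 with the block.

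TIMP1, a secreted inhibitor of most metalloproteinases, lies at 47582436 to 47586789 of chromosome X. It was counted 10990, 7112 and 8402 times in Par, 8057, 4002 and 3563 times in LM2, and 1846, 1900 and 1625 times in BrM2. Every BrM2 library, at 77.9 to 136 CPM, lay below every library of the other lines, although LM2 replicate 3, at 137 CPM, was close to BrM2 replicate 1. LM2 and Par overlapped, since LM2 replicate 1, at 400 CPM, lay above Par replicates 2 and 3. TIMP1 was 4.20-fold lower in BrM2 than in Par (log2 -2.07 ± 0.45, adjusted p = 0.0166, edgeR), and the same-numbered pairs differed by -2.08, -2.04 and -2.08. The call was made in 6 of 9 fits without 1 library, and the adjusted p was 0.0834 without BrM2 replicate 2, 0.0807 without BrM2 replicate 3 and 0.0553 without Par replicate 1. With the block the difference was -2.07 ± 0.16, with an adjusted p of 3.33e-06 in edgeR. LM2 differed from Par by -0.84 ± 0.44 (adjusted p = 0.349, edgeR) without the block and by -0.95 ± 0.15 (adjusted p = 0.000807, edgeR) with it. Without LM2 replicate 1 the difference was -1.48, with an adjusted p of 0.033 in edgeR. BrM2 lay below LM2 by -1.23 ± 0.44 (adjusted p = 0.147, edgeR), and with the block by -1.12 ± 0.15 (adjusted p = 0.000293, edgeR).

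The promoter sequences of TIMP1 and MMP14 are shown because these are the abundant inhibitor and the abundant protease that were lower in both sub-populations with the replicate block. The 250 bases before the annotated start are from RefSeq (GRCh38.p14), 5′ to 3′ on the + strand, at chrX:47582186-47582435 for TIMP1 and chr14:22836335-22836584 for MMP14, and promoters of 4 of the 10 genes were matched. Capitals mark the AP-1 variant TGAGTAA and the GC box GGGCGG, searched on both strands, and the AP-1 consensus TGAGTCA or TGACTCA, which was found in neither.
TIMP1: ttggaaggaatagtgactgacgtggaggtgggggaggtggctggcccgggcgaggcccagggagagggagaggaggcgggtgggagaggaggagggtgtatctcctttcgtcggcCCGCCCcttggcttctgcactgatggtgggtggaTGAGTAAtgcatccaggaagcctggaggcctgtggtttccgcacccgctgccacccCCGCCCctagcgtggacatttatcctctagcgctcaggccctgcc
MMP14: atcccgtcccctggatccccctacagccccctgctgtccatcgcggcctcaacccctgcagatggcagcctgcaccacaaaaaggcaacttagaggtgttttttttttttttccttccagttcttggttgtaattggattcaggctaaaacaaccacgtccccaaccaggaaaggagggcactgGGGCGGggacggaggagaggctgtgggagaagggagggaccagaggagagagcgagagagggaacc
TIMP1 held 1 AP-1 variant, 101 to 95 bases before the start, and 2 GC boxes, and MMP14 held 1 GC box, 66 to 61 bases before the start. Among 27305 promoters of the same length, 2.2% held the AP-1 variant, 4.2% the AP-1 consensus and 42.3% a GC box. The promoters of MMP15 and TIMP3 each held 5 GC boxes and neither AP-1 motif. No match overlapped another, and a match describes the letters of the window only.

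TIMP2, which inhibits MMP2 and also takes part in its activation by MMP14, had 11013, 8138 and 11484 counts in Par, 11163, 7522 and 8172 in LM2, and 5237, 6311 and 5875 in BrM2. In CPM all BrM2 libraries (279 to 387) lay below all Par libraries (394 to 579), and LM2 overlapped with both. Exons of CEP295NL on the same strand cover 3.61% of the exon bases of TIMP2 (78852977 to 78925387 of chromosome 17), and that gene had at most 14 counts. BrM2 differed from Par by -0.59 ± 0.28 (adjusted p = 0.238, edgeR), which was called with the block (-0.59 ± 0.12, adjusted p = 0.00269, edgeR). LM2 differed from Par by -0.28 ± 0.28, with an adjusted p of 0.699 in edgeR and 0.0664 with the block.

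TIMP3, the inhibitor that binds to the matrix and also blocks ADAM and ADAMTS proteases, had 13159, 12075 and 17431 counts in Par, 20930, 14986 and 18111 in LM2, and 12984, 15835 and 16064 in BrM2. In CPM all BrM2 libraries lay above all Par libraries, by a narrow margin (699 against at most 691), and LM2 overlapped with both. The gene lies at 32801705 to 32863041 of chromosome 22. Its differences from Par were 0.26 ± 0.23 in LM2 (adjusted p = 0.649, edgeR) and 0.31 ± 0.23 in BrM2 (adjusted p = 0.496, edgeR), and neither was called with the block.

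**Figure D3:**
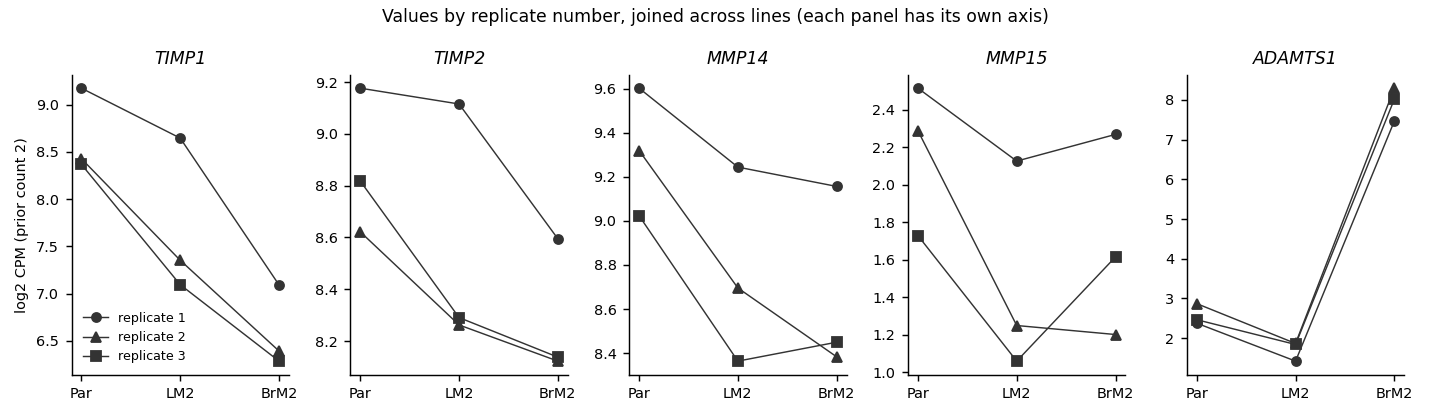
Values of TIMP1, TIMP2, MMP14, MMP15 and ADAMTS1 by replicate number. The y axis of each panel gives log2 CPM (prior count 2), and lines join the libraries of 1 number across Par, LM2 and BrM2. For TIMP1 the drop from Par to BrM2 is nearly equal in the 3 numbers (-2.08, -2.04 and -2.08), although replicate 1 is higher throughout, and in MMP14 all 3 numbers fall from Par to LM2.

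ADAMTS1 was counted 97, 149 and 138 times in Par, 52, 87 and 91 times in LM2, and 2399, 7123 and 5416 times in BrM2. No libraries of any pair of lines overlapped. Its level in BrM2, 250 ± 69.1 CPM (SD, n = 3), compares with 5.91 ± 1.14 in Par and 3.21 ± 0.54 in LM2. BrM2 had 42.3-fold more than Par (log2 5.40 ± 0.31, adjusted p = 3.49e-05, edgeR) and 77.8-fold more than LM2 (log2 6.28 ± 0.32, adjusted p = 4.13e-05, edgeR), and both calls were made in 9 of 9 fits without 1 library. LM2 was lower than Par in each same-numbered pair, by -0.96, -1.0 and -0.62. That difference of -0.88 ± 0.27 had an adjusted p of 0.0837 in edgeR and 0.0463 without BrM2 replicate 1, and it was called with the block (adjusted p = 0.00135, edgeR). Adjacent to ADAMTS1 (26835755 to 26845409 of chromosome 21) lies ADAMTS5 (26917922 to 26967088), another aggrecan-cleaving protease, which is singled out here after its values were seen. ADAMTS5 had 19, 46 and 17 counts in BrM2 and 0 in all Par and LM2 libraries. With a floor of 3 counts over the 3 libraries of a line set in place of 0, the ratio of BrM2 was 31.2 to Par and 33.9 to LM2. The exact 95% lower limits of the ratios from the counts themselves, which also cover the counting error of the BrM2 libraries, were 24.8 and 26.9.

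Counted by whether libraries overlap in CPM, LM2 and Par were separate for 4 of the 9 genes (MMP1, MMP2, MMP3 and ADAMTS1), where 25.2% of all genes tested were. BrM2 and Par were separate for 6 genes (MMP1, MMP3, TIMP1, TIMP2, TIMP3 and ADAMTS1), where 31.3% of all genes were. BrM2 and LM2 were separate for 4 genes (MMP1, MMP2, TIMP1 and ADAMTS1), where 23.1% of all genes were.

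Levels of different genes were compared per length, as TPM, the count of a gene divided by its length and scaled to a common total per library, from the counts and the summed exon length of each gene. In Par the order was TIMP1 (1044 TPM), TIMP3 (527) and MMP14 (512), which overlapped, TIMP2 (280), and then MMP15 (3.93), MMP1 (3.82) and ADAMTS1 (3.04), whose neighbors in the order overlapped. MMP2 followed at 0.349 TPM, and MMP3 and MMP9 were near 0. In LM2 the order was TIMP3 (604) and TIMP1 (541), which overlapped, MMP14 (343), MMP1 (319) and TIMP2 (221), each overlapping with the next, MMP2 (10.1), MMP3 (4.33), MMP15 (2.33) and ADAMTS1 (1.67), the last pair overlapping, and MMP9. In BrM2 MMP1 came first at 842 TPM and overlapped with TIMP3 (665), followed by MMP14 (337) and TIMP1 (256), which overlapped, TIMP2 (191), ADAMTS1 (134), MMP3 (4.73) and MMP15 (2.90), which overlapped, MMP9 (0.795) and MMP2 (0.170). With the longest transcript as length, pairs of neighbors that overlapped changed places, MMP14 (455) with TIMP3 (391) and MMP1 (3.93) with MMP15 (3.03) in Par, and TIMP1 (531) with TIMP3 (448) and MMP1 (328) with MMP14 (305) in LM2. By summed exons, MMP1 went from rank 11259 of all genes by mean TPM in Par to rank 378 in LM2 and rank 102 in BrM2.

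The summed level of the 6 metalloproteinases was 520 ± 53.1 TPM in Par, 679 ± 101 in LM2 and 1188 ± 237 in BrM2 (SD, n = 3 each). MMP14 made up 98.4% of this sum in Par, 51.7% in LM2 and 29.9% in BrM2, and MMP1 made up 0.728%, 45.8% and 69.4%. The 3 TIMPs summed to 1851 ± 180 TPM in Par, 1366 ± 231 in LM2 and 1112 ± 87.4 in BrM2, and within them TIMP1 went from 56.1% to 39.0% and 22.9%. TIMP3 went the other way, from 28.7% to 44.8% and 59.9%. The ratio of TIMP to metalloproteinase transcripts per length was 3.76, 3.05 and 3.94 in Par, 2.87, 1.67 and 1.69 in LM2, and 1.27, 0.727 and 0.918 in BrM2. The lines did not overlap in this ratio, whether the summed exons or the longest transcript gave the length, and LM2 replicate 1 was the closest to Par. These sums weigh all transcripts alike and say nothing of the proteins or of proenzyme activation, and with 3 libraries against 3 an exact permutation test could not go below p = 0.10, so none is given.

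**Figure D4:**
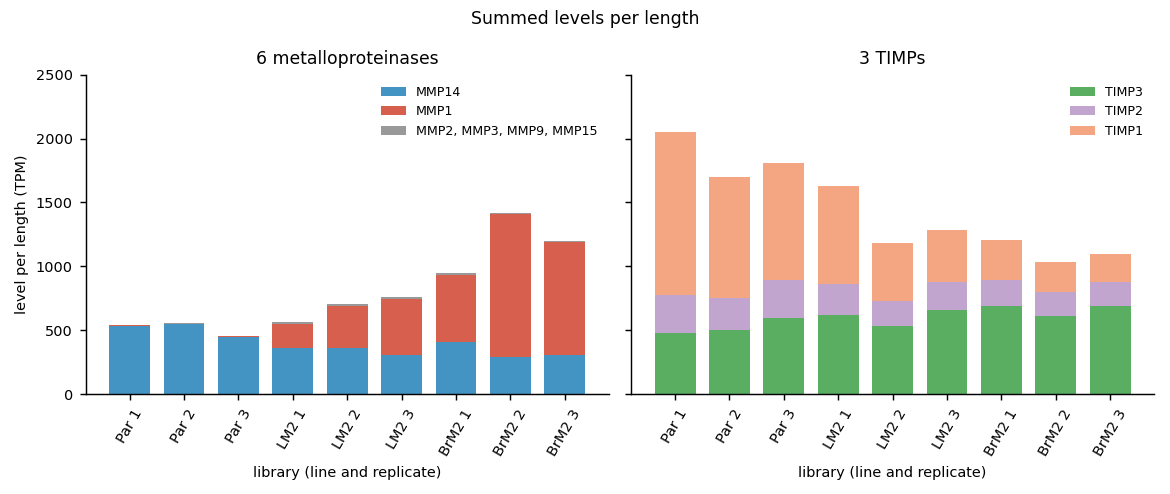
Summed levels of the 6 metalloproteinases (left) and of the 3 TIMPs (right) in each library. The y axis gives TPM, computed here from the counts and summed exon lengths, and the stacked bars start at 0. The metalloproteinase sum is almost wholly MMP14 in Par (98.4%) and mostly MMP1 in BrM2 (69.4%), while TIMP1 makes up less of the TIMP sum in BrM2 (22.9%) than in Par (56.1%).

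Other genes of these families were taken from lists chosen by function. A gene passed the filter when at least 1 library lay over it, so genes such as PCSK5 and PCSK6 were tested through lines in which they are high. The shares of called genes in these lists are therefore descriptions and no more. Of 17 other metalloproteinases and TIMP4, 5 genes passed the filter and 8 had at most 3 counts in every library. MMP24, a membrane-type protease, fell by 1.82 ± 0.39 in LM2 (adjusted p = 0.0216, edgeR) and by 1.88 ± 0.40 in BrM2 (adjusted p = 0.0146, edgeR), on the log2 scale. It had 163, 121 and 114 counts in Par against at most 50 in the other lines, and its calls were made in 5 and in 6 of 9 fits without 1 library, with an adjusted p of up to 0.102 in LM2 (without LM2 replicate 2) and 0.0734 in BrM2 (without BrM2 replicate 2). MMP11, stromelysin-3, fell by 1.75 ± 0.44 in LM2 (adjusted p = 0.0406, edgeR), a call made in 2 of 9 such fits, with an adjusted p of up to 0.163 (without LM2 replicate 2). With the block it was also called in BrM2 against Par (-0.92 ± 0.26, adjusted p = 0.0165, edgeR). Against Par the list thus held 0 higher and 2 lower genes in LM2 and 0 higher and 1 lower in BrM2, where 8.69% and 13.3% of all genes were called. With the block it held 2 higher and 2 lower in LM2 and 1 higher and 3 lower in BrM2, where 34.5% and 42.7% of all genes were called. Called higher with the block only were TIMP4 and MMP16, named here after their values were seen. TIMP4, the remaining TIMP, had 99, 50 and 76 counts in Par, 360, 147 and 214 in LM2, and 88, 99 and 104 in BrM2, and its log2 fold change in LM2 was 1.60 ± 0.45 (adjusted p = 0.0666, edgeR) and with the block 1.53 ± 0.21 (adjusted p = 0.00025, edgeR). Its value in BrM2 was 0.58 ± 0.45 (adjusted p = 0.515, edgeR) and with the block 0.65 ± 0.21 (adjusted p = 0.0303, edgeR). MMP16, a membrane-type protease, had 109, 214 and 194 counts in Par and 152, 569 and 730 in LM2, a log2 fold change of 1.31 ± 0.54 (adjusted p = 0.209, edgeR) and with the block of 1.18 ± 0.24 (adjusted p = 0.00342, edgeR). Between BrM2 and LM2 edgeR called 0 of the 5, of which 3 had an unadjusted p under 0.05, DESeq2 called 1 and edgeR with the block called 4. Of all genes, edgeR called 8.1% without and 37.5% with the block. The median log2 fold change of the list was -0.01 in LM2 and -0.68 in BrM2 against Par, beside 0.01 and -0.02 over all genes tested.

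Of 18 other ADAMTS genes, 9 were tested, and 1 was higher and 4 were lower in LM2 than in Par, where 4.17% and 4.52% of all genes were. In BrM2 against Par 0 were higher and 2 lower, where 6.25% and 7.02% of all genes were. With the block the counts were 3 and 4 in LM2 and 0 and 3 in BrM2, where ADAMTS9 was added (-0.64 ± 0.15, adjusted p = 0.00699, edgeR). The block called 15.5% and 19.1% of all genes higher and lower in LM2, and 19.5% and 23.2% in BrM2. Between BrM2 and LM2, 1 of the list was higher and 2 were lower in BrM2, where 4.11% and 3.99% of all genes were. With the block 3 and 2 were, where 17.8% and 19.7% of all genes were. ADAMTS17 had 36, 56 and 42 counts in Par, 229, 234 and 217 in LM2 and 42, 51 and 63 in BrM2, and was 4.67-fold higher in LM2 (log2 2.22 ± 0.27, adjusted p = 0.00136, edgeR). ADAMTS14, which removes the N-terminal propeptide of procollagen, was counted 109, 122 and 127 times in Par, 31, 56 and 31 times in LM2, and 0, 1 and 1 times in BrM2. It was lower in LM2 by 3.31-fold (adjusted p = 0.0105, edgeR), and its pooled ratio of Par to BrM2 was 157, with an exact interval of 43.1 to 1300 (adjusted p = 8.64e-05, edgeR). ADAMTS12 was 2.39-fold lower in LM2 than in Par (adjusted p = 0.00316, edgeR) and was at 104 to 139 CPM in BrM2, where Par was at 108 to 131 CPM. ADAMTS9 was 2.48-fold lower in LM2 (adjusted p = 0.00527, edgeR). ADAMTS15 was lower than Par by 4.36-fold in LM2 (adjusted p = 0.00742, edgeR) and by 3.43-fold in BrM2 (adjusted p = 0.0123, edgeR), the latter with an adjusted p of 0.0653 without BrM2 replicate 2 and 0.0627 without BrM2 replicate 3. The median of the list was -0.40 in LM2 and 0.10 in BrM2 against Par.

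Of 9 ADAM genes, a family of membrane-bound sheddases, 8 were tested, and 2 were called in each of LM2 against Par, BrM2 against Par and BrM2 against LM2, all lower, where 4.52%, 7.02% and 3.99% of all genes were called lower. The block called 1 higher and 5 lower in LM2 against Par, where it called 34.5% of all genes. It called 1 higher and 4 lower in BrM2 against Par (42.7% of all genes), and 3 higher and 3 lower in BrM2 against LM2 (37.5%). Among those added were ADAM19, higher in LM2 than in Par (0.68 ± 0.11, adjusted p = 0.000862, edgeR), and ADAM8, higher in BrM2 than in LM2 (1.24 ± 0.28, adjusted p = 0.00565, edgeR). ADAM12 had 113, 130 and 131 counts in Par, 87, 138 and 155 in LM2, and 12, 18 and 12 in BrM2, and was 7.72-fold lower in BrM2 than in Par (adjusted p = 0.000233, edgeR). ADAM28 had 98, 262 and 385 counts in Par, 9, 35 and 18 in LM2 and 1, 0 and 4 in BrM2, and was 12.7-fold lower in LM2 (adjusted p = 0.00715, edgeR), with a pooled ratio of Par to BrM2 of 130, exact interval 55.7 to 403 (adjusted p = 0.000859, edgeR). ADAM8 was 3.22-fold lower in LM2 than in Par (adjusted p = 0.0275, edgeR), a call made in 4 of 9 fits without 1 library, with an adjusted p of up to 0.112 (without Par replicate 2). ADAM19 was 1.93-fold lower in BrM2 than in LM2 (adjusted p = 0.038, edgeR), made in 1 of 9 such fits, with an adjusted p of up to 0.164 (without BrM2 replicate 3). The list's median was -0.54 in LM2 and -0.47 in BrM2 against Par.

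Activators and further inhibitors of metalloproteinases were 17 genes, of which 13 were tested. Against Par, 1 was higher and 1 lower in LM2, where 4.17% and 4.52% of all genes were, and 3 were higher and 2 lower in BrM2, where 6.25% and 7.02% were. With the block 2 were higher and 2 lower in LM2, where 15.5% and 19.1% of all genes were. In BrM2 it called 5 higher and 5 lower, where 19.5% and 23.2% of all genes were. Between BrM2 and LM2, 3 were higher and 1 lower in BrM2, where 4.11% and 3.99% of all genes were. With the block 5 and 5 were, where 17.8% and 19.7% of all genes were. PCSK5 and PCSK6 encode proprotein convertases of the furin family, which cleave many proproteins. FURIN itself, named here after its values were seen, had fewer counts in BrM2 than in Par and was not called without the block. It had 2240, 2071 and 1704 counts in Par, 3021, 1925 and 2008 in LM2, and 824, 564 and 672 in BrM2. These counts are not scaled to library size, and BrM2 replicate 1 was the library with the fewest counts in total. PCSK6 had 9, 11 and 10 counts in Par, 8, 12 and 21 in LM2, and 201, 311 and 395 in BrM2, and was 33.7-fold higher in BrM2 than in Par (adjusted p = 6.41e-05, edgeR). PCSK5 had 3, 2 and 8 counts in Par, 29, 51 and 55 in LM2, and 132, 254 and 230 in BrM2, and was higher by 9.36-fold in LM2 (adjusted p = 0.00115, edgeR) and by 52.9-fold in BrM2 (adjusted p = 7.1e-05, edgeR). THBS2, a matricellular protein that takes part in the clearance of MMP2, had 40, 72 and 76 counts in Par, 19, 26 and 27 in LM2, and 353, 506 and 437 in BrM2. It was 2.81-fold lower in LM2 (adjusted p = 0.00648, edgeR) and 8.06-fold higher in BrM2 (adjusted p = 0.000149, edgeR). Its relative THBS1 was 2.50-fold lower in BrM2 than in Par (adjusted p = 0.00524, edgeR), and with the block it was called lower in LM2 too (-0.75 ± 0.13, adjusted p = 0.00164, edgeR). The lysosomal protease gene CTSB was lower in BrM2 than in Par by 2.56-fold (adjusted p = 0.0252, edgeR), a call made in 4 of 9 fits without 1 library, with an adjusted p of up to 0.119 (without BrM2 replicate 2). The median of the list was 0.10 in LM2 and -0.19 in BrM2 against Par.

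**Figure D5:**
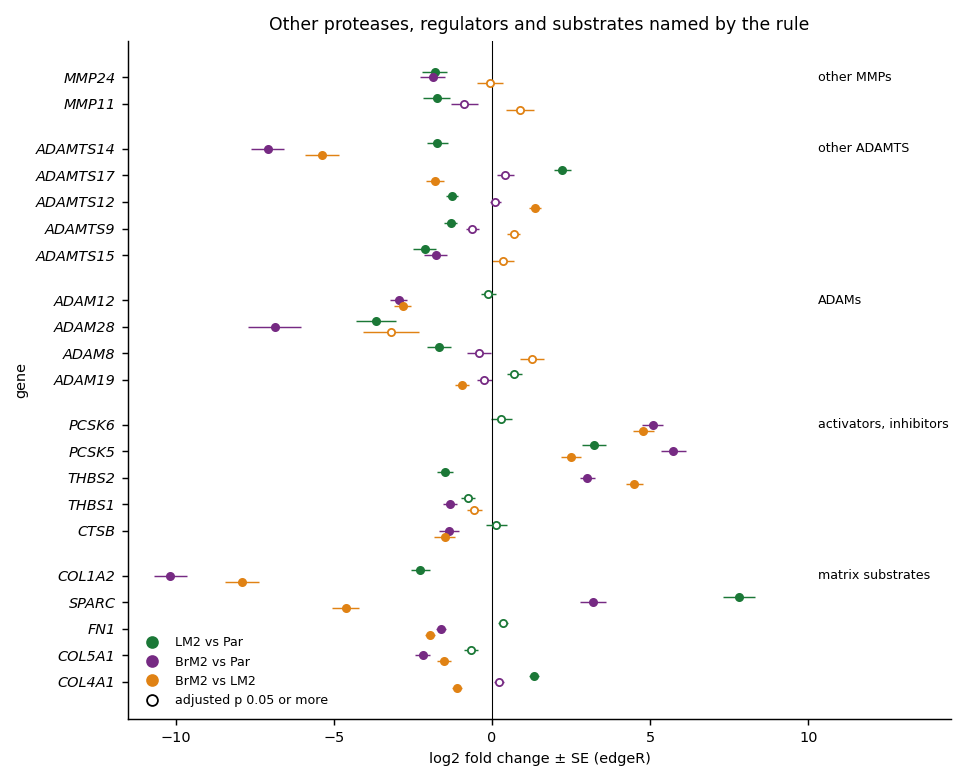
Differences of the other proteases, regulators and matrix substrates named by the rule. The x axis gives the log2 fold change from edgeR with its standard error, colors mark the comparison, and open points have an adjusted p of 0.05 or more. PCSK6 and THBS2 lie high in BrM2 and SPARC in LM2; the fitted values of COL1A2, ADAMTS14 and ADAM28 in BrM2 rest on 1, 2 and 5 counts over 3 libraries and depend on the fit.

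Matrix substrates were 17 genes, of which 13 were tested, with 4 higher and 2 lower in LM2, where 4.17% and 4.52% of all genes were, and 2 higher and 3 lower in BrM2, where 6.25% and 7.02% were, against Par. With the block 7 were higher and 4 lower in LM2 (34.5% of all genes called), and 4 were higher and 4 lower in BrM2 (42.7%). Between BrM2 and LM2 it called 2 higher and 9 lower, where it called 37.5% of all genes. Between the sub-populations, 1 was higher and 7 were lower in BrM2, where 4.11% and 3.99% of all genes were, with a list median of -1.06 beside -0.03 over all genes tested. COL1A2, a chain of the type I collagen that MMP1 and MMP14 cut, had 625, 520 and 571 counts in Par, 129, 117 and 143 in LM2, and 0, 1 and 0 in BrM2. It was 4.83-fold lower in LM2 (adjusted p = 0.00185, edgeR), and its pooled ratio of Par to BrM2 was 1503, with an exact interval of 269 to 59400 (adjusted p = 2.54e-05, edgeR). The other chain of that collagen, COL1A1, named here after its values were seen, went the other way in LM2, with 151, 160 and 123 counts in Par, 1095, 1006 and 916 in LM2, and 152, 103 and 152 in BrM2. It was higher in LM2 than in Par by 2.67 ± 0.37 (adjusted p = 0.00257, edgeR), and the value of BrM2 against Par was 0.16 ± 0.36 (adjusted p = 0.86, edgeR). COL4A1, a chain of basement membrane collagen, was 2.51-fold higher in LM2 than in Par (adjusted p = 0.00171, edgeR), at 114 to 140 CPM against 48.8 to 50.7. SPARC had 38, 48 and 53 counts in Par, 13139, 10358 and 9561 in LM2, and 434, 311 and 267 in BrM2, and was higher than Par in LM2 by 7.81 ± 0.50 (adjusted p = 8.45e-05, edgeR) and in BrM2 by 3.19 ± 0.41 (adjusted p = 0.00121, edgeR) on the log2 scale. FN1, fibronectin, was 3.05-fold lower in BrM2 than in Par (adjusted p = 0.000413, edgeR) and in LM2 was called higher with the block (0.36 ± 0.12, adjusted p = 0.0464, edgeR). COL5A1 was 4.55-fold lower in BrM2 (adjusted p = 0.000477, edgeR), and was called lower in LM2 with the block (-0.66 ± 0.15, adjusted p = 0.00697, edgeR).

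For each of the 5 genes called in at least 1 comparison, the genes with the most similar profile were found by Pearson's r of log2 CPM over the 9 libraries among 11867 genes. The points share their libraries and fall by line, so r is a description. MMP1 was most like MGAT5 (0.994) and CTSC (0.993), and CTSC was at 134 ± 2.10, 220 ± 6.15 and 234 ± 2.95 CPM in Par, LM2 and BrM2. MMP2 was most like CSF3 (0.984), which was at 1.22 ± 0.20, 44.9 ± 16.4 and 0.412 ± 0.37 CPM, and FARP1 (0.982). MMP3 was most like FYN (0.992) and MPP4 (0.990), and MPP4 was at 1.33 ± 0.12, 22.9 ± 0.50 and 22.1 ± 2.61 CPM. TIMP1 was most like KRT80 (0.996) and IGFBP7 (0.995), which was at 274 ± 72.4, 177 ± 79.1 and 86.5 ± 25.9 CPM. ADAMTS1 was most like FAT3 (0.995) and F2RL2 (0.992), and FAT3 was at 6.18 ± 1.61, 4.78 ± 0.18 and 70.1 ± 2.56 CPM.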

How the data were processed

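RNA-seq libraries of Par, LM2 and BrM2 (3 per line) were made by the authors with a stranded mRNA kit, and paired-end reads were aligned to hg38 and counted per gene. The submitters' processing notes name CASAVA 1.8.2, STAR 2.7.0 and DESeq2; the strand counted is not given in the sources used here. The deposited table holds raw counts without normalization. A further deposited table holds the authors' log2 fold changes and adjusted p-values and was not used.

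Of 58887 rows, 3 repeats with identical counts were dropped. A filter after HTSFilter kept 13055 genes with a normalized count over 47.1 in at least 1 library, holding 99.6% to 99.8% of the counts. The 3 lines were compared over all 9 libraries with TMM scaling and edgeR's 2-sided quasi-likelihood test (edgeR 4.0.16, R 4.3.3), with Benjamini-Hochberg adjustment over all genes kept and a threshold of 0.05. The test was also run on simulated counts. These had a smaller spread between libraries than the data and no effect of the replicate number, so that run does not show how the test performs here. The labels number the replicates alike in each line. Deviations of same-numbered libraries from their line means correlated at 0.23 to 0.90, and the numbers were taken to pair the libraries. Number 1 stood apart from the others, while libraries 2 and 3 of different lines also correlated, at 0.39 to 0.80, so numbers 2 and 3 were not told apart by this check. A fit with the replicate number as a block was therefore run beside the main one. Intervals of pooled counts are exact (Clopper-Pearson, 95%). Positions and promoters came from RefSeq tables (GRCh38.p14). Exon and transcript lengths, exon overlaps and shared 31-base stretches came from the GENCODE v44 annotation lifted to GRCh37. Alternatives were RLE scaling, other filters, DESeq2 1.42.0, the block, the 6 libraries compared only, leaving out libraries, and the longest transcript as length. Nothing states whether a number marks a shared passage, and p-values measure the spread between these cultures of 1 line each.

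The 10 genes, the lists and the motifs were chosen with earlier results of these data known. Named from each list were up to 5 genes called in at least 1 comparison, with a mean of at least 50 counts, by smallest adjusted p, and for each called gene the 2 with the highest r.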

Additional observations from a re-analysis of the deposited data

Results flagged for a closer look

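For 3 of the 9 genes tested, the difference from Par was not the same in BrM2 and LM2 in the direct test of one sub-population against the other (quasi-likelihood test of edgeR, Benjamini-Hochberg adjusted). Of all genes tested, 8.1% were called in that comparison. The remaining gene, MMP9, lay under the filter and had an adjusted p of 0.00891 there when no filter was used (edgeR). BrM2 minus LM2 was 1.37 (log2) for MMP1, -6.05 for MMP2 and 6.28 for ADAMTS1. Among the other proteases it was -5.37 for ADAMTS14, -1.81 for ADAMTS17, 1.36 for ADAMTS12 and -2.82 for ADAM12. Among activators and inhibitors it was 4.78 for PCSK6, 2.5 for PCSK5, 4.5 for THBS2 and -1.49 for CTSB. Among substrates it was -7.9 for COL1A2, -4.63 for SPARC, -1.96 for FN1, -1.52 for COL5A1 and -1.11 for COL4A1. The values of ADAMTS14 and COL1A2 rest on 2 and 1 counts over the BrM2 libraries. CTSB had an adjusted p of 0.106 without BrM2 replicate 2 and 0.11 without BrM2 replicate 3.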

How the results depend on the processing

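Of 519 fold changes of the 10 genes under alternatives, 462 kept their direction and their side of the threshold, 29 passed it anew, 16 lost it and 12 changed sign. With the replicate block 7, 6 and 4 of the genes were called in LM2 against Par, BrM2 against Par and BrM2 against LM2, in place of 3, 4 and 3. It added the 7 calls named in the report and changed no other call of the 10 genes. DESeq2 with the block called 6 in LM2 against Par, and without a filter 5 were called in BrM2 against LM2. Without 1 library, or without 1 number in all lines, the calls ranged from 1 to 8, from 2 to 6 and from 1 to 4. Without number 1 calls rose, and without number 2 they fell to the low end. MMP2 then had an adjusted p of 0.06 in LM2 against Par and 0.0557 in BrM2 against LM2 (edgeR). MMP3 had 0.0781 in LM2 and 0.0527 in BrM2 against Par, TIMP1 had 0.266 in BrM2 against Par, and MMP1 had 0.435 in BrM2 against LM2. Without number 3, MMP2 had 0.115 in LM2 against Par and 0.0771 in BrM2 against LM2. Over all genes the counts of 1134, 1733 and 1057 became 4510, 5577 and 4896 with the block, 4608, 5575 and 4934 with DESeq2 and the block, and 1893 and 1824 in LM2 against Par and BrM2 against LM2 with DESeq2. BrM2 against LM2 with only its 6 libraries gave 598. Leaving out libraries or numbers gave 70 to 4327, 159 to 5274 and 53 to 4257.

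Among the 10 genes and the 21 genes named by the rule, signs changed without libraries or numbers and under no other alternative run, and for differences that were not called. In BrM2 against LM2 the values then ranged from -0.118 to 0.365 for MMP3, -0.397 to 0.168 for MMP14, -0.132 to 0.609 for MMP15, -0.483 to 0.026 for TIMP2, -0.099 to 0.31 for TIMP3 and -0.518 to 0.211 for MMP24. In LM2 against Par they ranged from -0.002 to 0.419 for TIMP3, -0.251 to 0.02 for ADAM12, -0.129 to 0.505 for PCSK6 and -0.332 to 0.337 for CTSB, and in BrM2 against Par from -0.873 to 0.144 for ADAM8. With the longest transcript as length, 12 of 39 levels and sums moved by more than 1 SD, TIMP3 was at 391, 448 and 488 TPM in Par, LM2 and BrM2 and MMP14 at 455 TPM in Par. The causes were not tested. Depth limited MMP9, and MMP2 in BrM2.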
